A study of Homo sapiens with 4 samples.

Results

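The genes described here are 10 genes for double-stranded RNA sensing and the signalling below it, taken by name from the 28058 genes of the count table: DDX58 (now also named RIGI), IFIH1, DHX58, MAVS, TICAM1, UNC93B1, TBK1, IRF3, EIF2AK2 and ADAR. All 10 were listed, and all 10 passed the filter on low counts. They were measured by sequencing of poly(A) RNA in SH-SY5Y, an established human neuroblastoma line, in 2 untreated control samples and 2 samples given shock wave treatment (SWT). All 4 samples were of the same cell line in the same serum-containing medium, with no further agent or genetic change named in the labels. Per the labels' protocols the SWT flasks were filled with medium, held in a water bath at 37 °C, 7 cm from the applicator, and given 300 pressure impulses at 3 Hz and 0.08 mJ/mm2, with RNA taken at 6 h. The series' design text names exosomes obtained with shock waves as the agent instead, and it is not known here which description holds. Whether replicates were separate cultures is not stated in the labels, so a p-value reflects the spread among these 4 libraries alone, and that spread may be technical.

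Double-stranded RNA is a sign of virus replication, and of RNA released from damaged cells. In the cytosol it is bound by the helicases RIG-I (gene DDX58) and MDA5 (gene IFIH1), which signal through MAVS on mitochondria, and in endosomes by Toll-like receptor 3, which is carried there by UNC93B1 and signals through TRIF (gene TICAM1). Both routes meet at the kinase TBK1, which phosphorylates the transcription factor IRF3 and so switches on the interferon beta gene. PKR (gene EIF2AK2) binds double-stranded RNA and halts translation, and ADAR1 (gene ADAR) edits adenosines in it so that a cell's own RNA is not sensed. DDX58, IFIH1, DHX58, EIF2AK2 and the longer isoform of ADAR are known targets of interferon, whose factors bind paired GAAA repeats in promoters. The series title names Toll-like receptor 3, and the comparison of SWT with control asks whether the RNA of this machinery differed between treated and untreated samples.

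The promoter windows of the sensors DDX58 and IFIH1 and of the kinase EIF2AK2 are shown because they were the 3 windows of these genes that held such a GAAA pair. RefSeq windows (GRCh38.p14, 250 bases before to 50 after a gene's start) were matched for 7 of the 10 genes, in 9 windows, ADAR having several starts. DHX58, UNC93B1 and IRF3 were not matched. The motif GAAA, any 2 bases, GAAA, searched on both strands, was in the windows of IFIH1 and EIF2AK2 and in 3.57% of all 35116 windows. The longer form with a G before it and a C after it, which contains it, was in the EIF2AK2 window and in 0.322% of all. The pair with 1 base of any kind between its GAAA units was searched after the sequences had been seen. It was in the DDX58 window and in 3.12% of all. The sequences below run 5′ to 3′ on the gene's own strand (minus for all of them), from 250 bases before the start to 10 after it, with the matches in capitals. They lie at chr9:32526187-32526446 (DDX58), chr2:162318675-162318934 (IFIH1) and chr2:37156971-37157230 (EIF2AK2).
DDX58: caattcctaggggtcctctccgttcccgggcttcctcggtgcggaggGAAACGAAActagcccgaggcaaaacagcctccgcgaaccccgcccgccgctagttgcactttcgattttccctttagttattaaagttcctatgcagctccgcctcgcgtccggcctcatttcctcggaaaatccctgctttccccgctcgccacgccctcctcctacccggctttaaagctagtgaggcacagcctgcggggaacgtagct
IFIH1: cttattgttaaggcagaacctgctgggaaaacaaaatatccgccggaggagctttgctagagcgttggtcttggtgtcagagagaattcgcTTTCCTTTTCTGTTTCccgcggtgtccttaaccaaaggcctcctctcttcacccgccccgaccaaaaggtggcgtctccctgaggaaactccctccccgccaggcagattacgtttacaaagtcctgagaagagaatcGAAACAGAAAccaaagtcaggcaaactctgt
EIF2AK2: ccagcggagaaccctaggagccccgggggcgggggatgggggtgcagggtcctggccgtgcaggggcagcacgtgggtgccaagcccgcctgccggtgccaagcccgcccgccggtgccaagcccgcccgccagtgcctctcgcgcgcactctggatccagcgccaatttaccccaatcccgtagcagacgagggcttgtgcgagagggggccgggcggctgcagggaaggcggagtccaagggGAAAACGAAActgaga

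The DDX58 match began 203 bases before the start. IFIH1 had a match on its own strand that began 21 bases before the start and an overlapping pair on the other strand from 159 to 144 bases before it. The EIF2AK2 match began 6 bases before the start and ran across it. No window of MAVS, TICAM1, TBK1 or ADAR held these letters, which says nothing of sites elsewhere. A match is a string of letters and not a measured binding site.

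Total counts ran from 9888263 to 11686808 per library. Levels are given in CPM, counts scaled to a common library size, with replicate 1 before replicate 2 in each group. Where a gene had no count, its level could still be as high as 0.257 to 0.303 CPM in the library concerned, from counting error only. The noradrenergic identity expected of SH-SY5Y was thinly present in the counts: of 24 marker genes 6 reached 10 CPM in every library and 9, among them PHOX2A, TH and DBH, had no count in any. Some genes that most cells use were listed at 0 as well, so a marker without a count need not be absent. Of 30 mesenchymal neuroblastoma markers 24 reached 10 CPM in every library, and 14 of 16 leukocyte markers stayed under 1 CPM in every library. Of 26 heart muscle markers 1 reached 10 CPM in every library and 3 stayed under 1 CPM in every library. All 26 summed to 667 CPM in control replicate 2 and to 188 to 323 CPM in the other libraries. Which of them carried the sum is not reported here. Fits without each library in turn were therefore made for the 10 genes, the related genes and their lists. The part of these transcripts in the results was not tested. With edgeR's quasi-likelihood test and Benjamini-Hochberg adjustment, 0 of 12399 genes were higher and 0 lower after SWT at an adjusted p under 0.05, with 715 genes (5.77%) at an unadjusted p under 0.05. DESeq2 also called 0 genes (116 of 17737 at an unadjusted p under 0.05), as did limma-voom (721 of 12399). The counts of 0 depended on the libraries and the filter: edgeR called 60 genes higher and 63 lower when control replicate 1 was left out, 106 higher and 97 lower when control replicate 2 was, 5 and 39 when SWT replicate 1 was, 2 and 15 when SWT replicate 2 was, and 20 and 43 with no filter on low counts. None of the 10 genes was among these calls.

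None of the 10 genes passed the test, against a background of 0.0% of all genes called higher and 0.0% called lower. Their log2 fold changes ran from -0.17 for DHX58 to 0.17 for DDX58, with a median of 0.023, beside -0.00078 over all genes tested. The 10 genes had 7 values above 0 and 3 below, where 49.7% of all genes tested lay above 0. None of the 10 had an unadjusted p under 0.05, and the smallest was that of EIF2AK2 (edgeR unadjusted p = 0.0710). The 95% interval of the log2 fold change lay within 0.5 of 0 for 9 of the 10 genes, all but DHX58, and for 77.6% of all genes. Both SWT libraries lay above both controls for 3 of the 10 genes, DDX58, UNC93B1 and EIF2AK2, and for 17.3% of all genes. Both lay below for 0 of the 10 and for 18.0% of all. For 7 of the 10 genes the 2 controls differed from each other by more than the group means did, and so did 62.4% of all genes.

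**Figure D1:**
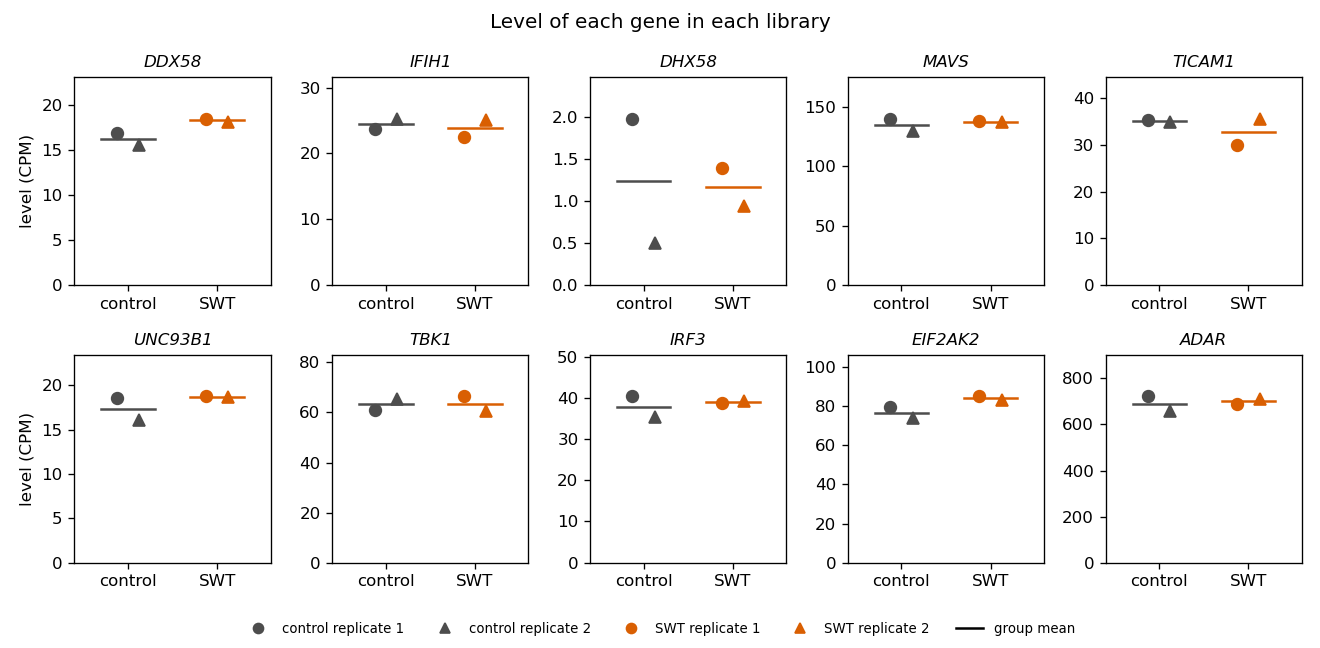
Level of each of the 10 genes in CPM (vertical axis, from 0) in the 2 control and 2 SWT libraries, with circles for replicate 1, triangles for replicate 2 and lines for group means. The groups are apart in DDX58, UNC93B1 and EIF2AK2, by little in UNC93B1, and they overlap in the other genes.

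Among the helicase sensors, DDX58 (chromosome 9, 32455705 to 32526324, minus strand, GRCh38) encodes RIG-I, which recognises short double-stranded RNA with a 5′ triphosphate. It stood at 16.9 and 15.6 CPM in the controls and at 18.5 and 18.1 CPM in the SWT libraries, from 154 to 211 counts. Both SWT libraries were above both controls. The log2 fold change was 0.17 (SE 0.12), with a 95% interval from 0.945-fold to 1.34-fold (edgeR adjusted p = 0.900). It lay between 0.12 without control replicate 2 and 0.23 without control replicate 1. With both SWT libraries above both controls, leaving out a library could hardly turn the sign, so the kept direction adds no support.

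IFIH1 (chromosome 2, 162267079 to 162318703, minus strand) encodes MDA5, which recognises long double-stranded RNA. It had 23.7 and 25.3 CPM in control and 22.5 and 25.1 CPM in SWT. The lowest and the second highest value were both from SWT, and the groups overlapped. Its log2 fold change was -0.033 (SE 0.11), with a 95% interval from 0.838-fold to 1.14-fold (edgeR adjusted p = 0.988). It turned positive without control replicate 2 (0.015) or without SWT replicate 1 (0.040).

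DHX58 (chromosome 17, 42101404 to 42112733, minus strand) encodes LGP2, a relative of these helicases that lacks their signalling domains and modulates them. It was near the limit of detection, its counts being 23 and 5 in the controls and 14 and 11 in the SWT libraries, or 1.98, 0.505, 1.39 and 0.943 CPM. Both the highest and the lowest value were controls. The exact Poisson 95% intervals of the control counts, 14.6 to 34.5 and 1.62 to 11.7, did not overlap, so these controls differed by more than counting error while carrying the same label. SWT over control gave a log2 fold change of -0.17 (SE 0.50), whose interval ran from 0.428-fold to 1.86-fold (edgeR adjusted p = 0.987). Leaving out control replicate 1 gave 1.17, leaving out control replicate 2 gave -0.78, and limma-voom gave 0.098. A change of DHX58 within this interval was not detectable with these libraries.

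**Figure D2:**
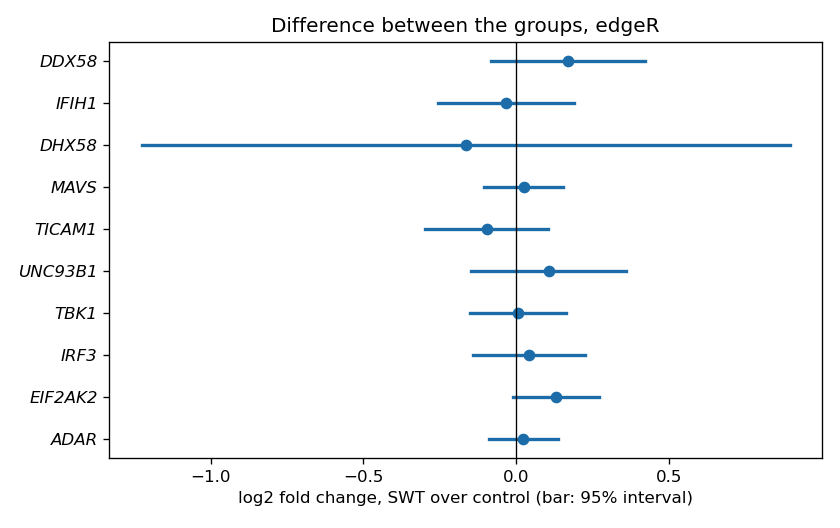
Log2 fold change of SWT over control (horizontal axis) for each gene, with points for the edgeR estimate and bars for its 95% interval. All 10 intervals include 0, and that of DHX58, from -1.23 to 0.89, is the widest.

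Of the adaptors, MAVS (chromosome 20, 3846799 to 3876123, plus strand), which carries the signal of both RIG-I and MDA5, was measured most tightly. It stood at 140 and 130.0 CPM in control and 138 and 137 CPM in SWT, from 1287 to 1627 counts. The SWT values lay between the control values. For MAVS the log2 fold change was 0.024 (SE 0.061), with a 95% interval from 0.929-fold to 1.11-fold (edgeR adjusted p = 0.984). It was -0.027 without control replicate 2.

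TICAM1 (chromosome 19, 4815932 to 4831704, minus strand) encodes TRIF, the only adaptor that Toll-like receptor 3 uses. It stood at 35.4 and 35.0 CPM in control and 30.0 and 35.6 CPM in SWT. SWT replicate 1 was the low library, and the other 3 lay close together. SWT over control gave a log2 fold change of -0.097 (SE 0.096), with a 95% interval from 0.813-fold to 1.08-fold (edgeR adjusted p = 0.928). It was 0.017 without SWT replicate 1 and -0.23 without SWT replicate 2.

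UNC93B1 (chromosome 11, 67991104 to 68004982, minus strand) encodes the membrane protein that brings Toll-like receptors 3, 7 and 9 from the endoplasmic reticulum to endosomes. It had 18.6 and 16.1 CPM in control and 18.8 and 18.7 CPM in SWT. The SWT values were above both controls, but control replicate 1 was close to them and control replicate 2 was the library that stood apart. For UNC93B1, SWT over control gave 0.11 on the log2 scale (SE 0.12), with a 95% interval from 0.903-fold to 1.28-fold (edgeR adjusted p = 0.935). Leaving out control replicate 2 brought this value to 0.011, and leaving out control replicate 1 brought it to 0.22. UNC93B1 has near-identical pseudogene copies whose reads the counting could have split or dropped, so its level is uncertain.

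TBK1 (chromosome 12, 64451880 to 64502108, plus strand), the kinase on which both routes converge, stood at 61.1 and 65.5 CPM in control and 66.5 and 60.6 CPM in SWT. Each group held 1 higher and 1 lower library. Its log2 fold change was 0.0041 (SE 0.075), with a 95% interval from 0.899-fold to 1.12-fold (edgeR adjusted p = 0.998), and its sign changed with the scaling: it was -1.6e-05 with upper-quartile scaling. IRF3 (chromosome 19, 49659569 to 49665875, minus strand), which TBK1 phosphorylates, stood at 40.4 and 35.3 CPM in control and 38.8 and 39.3 CPM in SWT. The SWT values lay between the controls. Its log2 fold change was 0.041 (SE 0.087), with a 95% interval from 0.906-fold to 1.17-fold (edgeR adjusted p = 0.974), and it was -0.047 without control replicate 2. IRF3 shares exon bases with BCL2L12 on the other strand, and TBK1 with an antisense gene, and the counting is not known to use strand, so their reads may not be fully told apart. TBK1 and IRF3 are activated by phosphorylation, which RNA levels do not measure.

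EIF2AK2 (chromosome 2, 37099210 to 37157065, minus strand) encodes PKR, which phosphorylates the translation factor eIF2 when it binds double-stranded RNA. It stood at 79.4 and 73.9 CPM in control and 85.0 and 82.9 CPM in SWT, from 731 to 967 counts. Both SWT libraries were above both controls. The log2 fold change was 0.13 (SE 0.067), with a 95% interval from 0.991-fold to 1.21-fold (edgeR adjusted p = 0.845). With a library left out it ran from 0.082 without control replicate 2 to 0.19 without control replicate 1. Its sign could hardly turn in these fits, since both SWT libraries were above both controls. With each library's trend along transcript length and GC content removed it was 0.078. The longest EIF2AK2 transcript has a GC content of 38.7%, the lowest of the 10 genes, against a median of 47.6% over tested genes, and the part of GC content in this value was not tested further.

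ADAR (chromosome 1, 154582057 to 154628013, minus strand) was the most abundant of the 10 genes. It stood at 722 and 659 CPM in control and 691 and 713 CPM in SWT, from 6521 to 8388 counts. The SWT values lay between the controls. For ADAR the log2 fold change was 0.023 (SE 0.054), with a 95% interval from 0.939-fold to 1.10-fold (edgeR adjusted p = 0.976), and it was -0.040 without control replicate 2. The counts are per gene and do not separate the interferon-inducible long isoform from the constitutive short one.

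**Figure D3:**
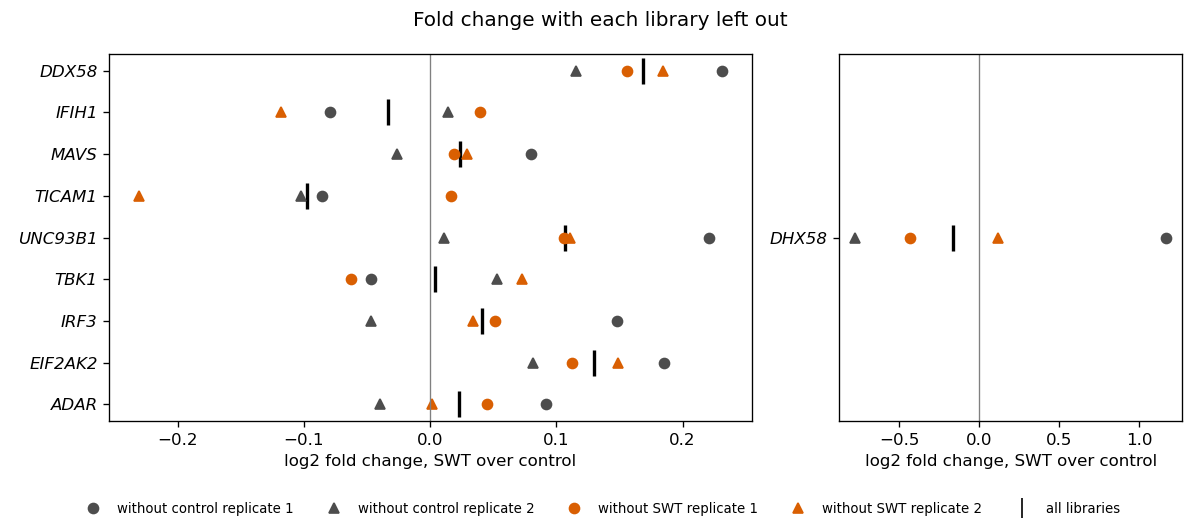
Log2 fold change of SWT over control (horizontal axis) with all libraries (black ticks) and with each library left out (symbols), DHX58 on a wider axis of its own. DDX58, UNC93B1 and EIF2AK2, whose groups do not overlap, keep their sign throughout, which that separation largely fixes in advance. The other 7 genes cross 0.

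Control replicate 2 was below control replicate 1 for 8 of the 10 genes, all but IFIH1 and TBK1, against 50.6% of all genes tested. The groups overlapped for 7 of the 10 genes. Over all genes tested, both SWT libraries lay above both controls for 17.3% and below both for 18.0%. Leaving out 1 library at a time turned the sign of the values of those 7 genes in at least 1 of the fits. No gene of the 10 passed in any of them. Removing each library's trend along transcript length and GC content moved 7 values by over 1.5 times: UNC93B1 from 0.11 to 0.17, IRF3 from 0.041 to 0.095, TICAM1 from -0.097 to -0.038, IFIH1 from -0.033 to -0.051, MAVS from 0.024 to 0.014, ADAR from 0.023 to 0.0084 and EIF2AK2 from 0.13 to 0.078, while TBK1 turned to -0.018.

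Per length of the longest GENCODE transcript, the 10 genes differed widely in level. ADAR led at 97.9 ± 3.95 CPM per kb (SD, n = 4), above 95.2% of the 12077 tested genes with a known length. TBK1 followed at 19.5 ± 0.919 CPM per kb (SD, n = 4). Neither overlapped its neighbour in the order. IRF3, TICAM1 and MAVS came next at 13.4 ± 0.770, 12.7 ± 1.01 and 11.6 ± 0.370 CPM per kb (SD, n = 4), with ranges that overlapped from each to the next. EIF2AK2 and UNC93B1 stood at 7.995 ± 0.486 and 7.78 ± 0.566 CPM per kb, and these overlapped too, as did UNC93B1 with IFIH1 at 6.72 ± 0.362 CPM per kb (SD, n = 4). The helicases were at the low end: DDX58 stood at 3.96 ± 0.301 and DHX58 at 0.460 ± 0.241 CPM per kb (SD, n = 4), above 30.3% and 4.35% of tested genes, without overlap between them or with IFIH1. The median of all tested genes was 9.0 CPM per kb. With the length of all exons joined, IRF3 moved from the third place to the fifth, behind TICAM1 and MAVS, and the other 7 genes kept their places.

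On the scale of level per length, the 3 helicase sensors had lower means than every adaptor, kinase and effector of the set. IFIH1 exceeded DDX58 in every library, by 1.48 to 1.97 times. DDX58 exceeded DHX58 by 5.12 to 18.5 times, with DHX58 counts from 5 in control replicate 2 to 23 in control replicate 1. MAVS exceeded DDX58 by 2.78 to 3.11 times and IFIH1 by 1.58 to 1.88 times. Per length, the adaptors of the cytosolic and the endosomal route were at like levels, with a MAVS to TICAM1 ratio of 0.850 to 1.05. Undivided by length, MAVS had a mean of 136 CPM and TICAM1 one of 34.0 CPM. Their longest transcripts have 11714 and 2676 bases, so the likeness rests on the length used. Which MAVS transcripts were made was not tested. The ratio of IFIH1 to DDX58 fell to 1.19 over the means with the joined exon length, so its size depends on which transcripts are made.

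The endosomal receptor gene TLR3 stood at 3.29 ± 0.208 CPM per kb (SD, n = 4). DDX58 exceeded it by 1.16 to 1.30 times per library, IFIH1 by 1.75 to 2.27 times and UNC93B1 by 2.24 to 2.52 times. TLR3 had 19.7 and 18.6 CPM in control and 21.5 and 19.3 CPM in SWT, with overlapping groups (log2 fold change 0.087, SE 0.11, edgeR adjusted p = 0.941). The other nucleic acid receptors of endosomes had few or no counts: TLR8 was listed at 0 in every library, TLR7 had a total of 1 count, and TLR9 had 2 counts in a control and 1 in an SWT library. Genes that most cells use, such as HRAS, were listed at 0 too, so the 0 of TLR8 is not read as absence. Of the receptors that UNC93B1 carries, TLR3 was the one with counts to test.

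**Figure D4:**
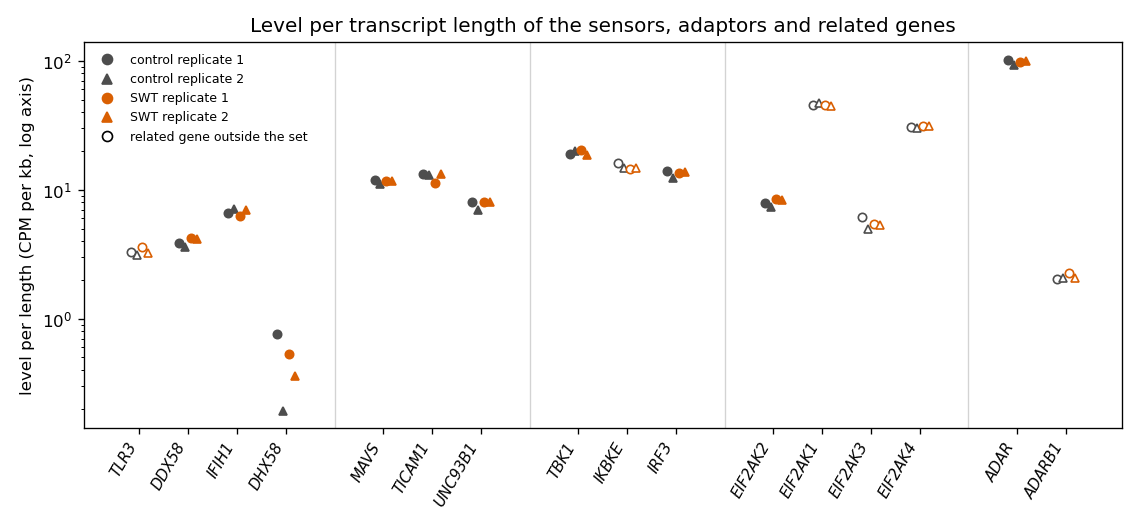
Level in CPM per kb of the longest transcript (vertical axis, log scale) in each library, with filled symbols for the 10 genes and open symbols for related genes, grouped as sensors, adaptors, kinases with IRF3, eIF2 kinases and editing enzymes. ADAR stands near 97.9 and ADARB1 near 2.11, and DHX58 is the lowest and the most scattered.

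Among kinases and scaffolds of the pathway, 0 of 19 tested genes passed in either direction, with a median log2 fold change of 0.0083. IKBKE, the kinase closest to TBK1, stood at 15.0 ± 0.705 CPM per kb (SD, n = 4), and TBK1 exceeded it by 1.17 to 1.42 times, or by 1.05 times over the means with the joined exon length. TRAF3, which joins MAVS and TRIF to TBK1, had a log2 fold change of -0.030 (SE 0.071). The lowest value of this list was that of IRF5, a relative of IRF3, at 2.93 and 2.83 CPM in control and 1.49 and 1.89 CPM in SWT (log2 fold change -0.76, SE 0.29, edgeR adjusted p = 0.838). TRADD, an adaptor in the MAVS complex, stood at -0.27 (SE 0.14). IRF7, the interferon-inducible relative of IRF3, was listed at 0 in all 4 libraries. Its chromosomal neighbours HRAS and RNH1, which most cells use, were listed at 0 as well, so the level of IRF7 cannot be read from this table. Other neighbours had counts: PHRF1 had 4 to 14 per library, DEAF1 227 to 348 and TALDO1 1915 to 2357. RNF135, a ubiquitin ligase of RIG-I, and SKIV2L, an RNA exosome helicase, were also listed at 0. The neighbours of RNF135 were not looked up. Since genes that most cells use were listed at 0, the zeros of RNF135 and SKIV2L are not read as absence either. None of the 10 genes was listed at 0.

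Of the cofactors of RIG-I-like receptors 0 of 19 tested genes passed, with a median of 0.049. Both SWT libraries lay above both controls for 4 of the 19 and below both for 4, beside 17.3% and 18.0% of all genes tested. DHX9, an RNA helicase that also binds double-stranded RNA, had 653 and 669 CPM in control and 691 and 686 CPM in SWT (log2 fold change 0.059, SE 0.049, edgeR adjusted p = 0.912). G3BP1, a stress granule protein that binds RIG-I, stood at 0.084 (SE 0.058) and the nucleolar helicase gene DDX21 at 0.087 (SE 0.056, edgeR adjusted p = 0.886). DDX21 had 588 and 657 CPM in control and 669 and 653 CPM in SWT, with overlapping groups, and it passed only in the fit without control replicate 2 (0.17, edgeR adjusted p = 0.0363), the one call among the related lists in the 4 fits that left out a library.

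For the editing and double-stranded RNA-binding proteins, 0 of 17 tested genes passed, with a median of 0.0092. ADAR exceeded ADARB1, the gene of the second active editing enzyme, by 42.9 to 50.1 times per length in every library. ADARB1 had a log2 fold change of 0.073 (SE 0.13), and ADARB2, the brain-enriched member without known activity, was listed at 0. DICER1, which cuts double-stranded RNA into small RNAs, had 69.0 and 71.1 CPM in control and 78.1 and 75.7 CPM in SWT (log2 fold change 0.13, SE 0.067, edgeR adjusted p = 0.843). Its partner TARBP2, which also restrains PKR, had 35.6 and 33.7 CPM in control and 28.9 and 32.1 CPM in SWT (-0.19, SE 0.092, edgeR adjusted p = 0.843). The groups were apart in both genes, in opposite directions, and DICER1 and TARBP2 were the genes of smallest edgeR p in their list. Both SWT libraries lay above both controls for 17.3% of all genes tested and below both for 18.0%. With the length and GC trend removed, DICER1 stood at 0.083 and TARBP2 at -0.13. PRKRA, which activates PKR, stood at 0.072 (SE 0.12), and ZBP1, a sensor of Z-form RNA whose effect ADAR restrains, was listed at 0. The zeros of ADARB2 and ZBP1 are not read as absence either.

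PKR is 1 of the 4 kinases that phosphorylate eIF2, and the others answer to heme loss, endoplasmic reticulum stress and amino acid loss. Per length, the heme-regulated EIF2AK1 exceeded EIF2AK2 by 5.36 to 6.37 times and the amino acid sensor EIF2AK4 by 3.70 to 4.06 times. With the joined exon length the ratios of the means were 4.93 for EIF2AK1 and 1.90 for EIF2AK4, against 5.72 and 3.86. Both lengths are long for EIF2AK2, at 10042 and 10753 bases, against 4469 and 5550 for EIF2AK1. Undivided by length, the means were 204 CPM for EIF2AK1, 169.5 for EIF2AK4 and 80.3 for EIF2AK2. The size of both ratios therefore depends on the length used. EIF2AK2 exceeded EIF2AK3, the kinase of the endoplasmic reticulum, by 1.28 to 1.57 times. Of the eIF2 kinases, subunits and regulators 0 of 15 passed, with a median of -0.033. EIF2B3 and EIF2B4, subunits of the exchange factor that eIF2 phosphorylation blocks, stood at -0.18 (SE 0.080) and -0.18 (SE 0.080), each with an edgeR adjusted p = 0.843.

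Among the OAS synthetases, another branch that senses double-stranded RNA, and the genes listed with them, 0 of 6 tested genes passed, with a median of 0.077. OAS3, which responds to long double-stranded RNA, was the leading synthetase at 14.2 ± 1.16 CPM per kb (SD, n = 4). OAS1 stood at 2.51 ± 0.359 and OASL at 1.33 ± 0.172 CPM per kb (SD, n = 4), and OAS2, with 2 to 13 counts, was not tested. PDE12, which degrades the messenger that the synthetases make, had a log2 fold change of 0.15 (SE 0.075), and ABCE1, a ribosome recycling factor, one of 0.089 (SE 0.059).

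Of the 10 interferon genes, 8 were listed at 0 in all 4 libraries, among them IFNB1, the main target of IRF3, and the interferon lambda genes IFNL1, IFNL2 and IFNL3. Since genes that most cells use, such as HRAS, RNH1, BAG6 and DDX39B, were listed at 0 too, and IFNL2 and IFNL3 are near-identical copies, these zeros cannot be read as absence of the transcripts. IFNE, an interferon of epithelia, was the one tested, at 1.63 to 2.88 CPM, and its log2 fold change of 0.18 became -0.26 without SWT replicate 1. Of the 20 interferon output genes 11 had counts to test, and 0 of these passed. Their log2 fold changes ran from -0.86 to 0.85, with 4 of 11 above 0, where 49.7% of all genes tested were. The median was -0.11, and it was -0.040 without control replicate 1. IFIT1, a direct IRF3 target, had 11.97 and 9.80 CPM in control and 10.3 and 11.6 CPM in SWT (log2 fold change 0.0049, SE 0.15, edgeR adjusted p = 0.998). IFI44L stood at -0.25 (SE 0.10) and the exonuclease gene ISG20, the lowest of the list, at -0.86 (SE 0.44). Both were named for having the smallest edgeR p of the list, and the gene at 0.85 is not reported here. The ISG20 value rests on few counts, 16 and 13 in control and 7 and 9 in SWT.

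Of the genes listed for interferon receptor signalling, feedback inhibitors such as SOCS3 among them, 10 of 11 tested lay below 0, where 50.3% of all tested genes did. Their median was -0.036, and none passed the test. The count below 0 was 6 without control replicate 1 or SWT replicate 1, 9 without control replicate 2 and 8 without SWT replicate 2. STAT2, a transcription factor of this pathway, stood at -0.036 (SE 0.085). IRF9, its partner, had 18.3 and 14.9 CPM in control and 13.5 and 13.2 CPM in SWT (-0.32, SE 0.13, edgeR adjusted p = 0.838), which became -0.15 without control replicate 1. The feedback inhibitor gene SOCS3 stood at -0.16 (SE 0.075). The 5 interferon-inducible genes of the set, DDX58, IFIH1, DHX58, EIF2AK2 and ADAR, had 3 values above 0 and a median of 0.023, and the 5 others had 4 above 0 and a median of 0.024.

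In the sensing of cytosolic DNA, a parallel route that also ends at TBK1 and IRF3, 0 of 9 tested genes passed. Of the 9, 7 lay below 0 (median -0.044), where 50.3% of all tested genes did. The DNA sensor gene CGAS had 1 count in control replicate 1 and none elsewhere. AIM2, a DNA sensor of inflammasomes, stood at -0.29 (SE 0.20), or -0.15 without control replicate 1, and RNASEH2A, a nuclease subunit for RNA paired with DNA, at -0.11 (SE 0.073).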

How the data were processed

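Poly(A) RNA of SH-SY5Y was sequenced in 2 control and 2 SWT samples, grouped and numbered by their labels. The authors deposited raw counts per gene symbol for 28058 genes and a second table of log2 values for 17151 genes. The submitters' processing notes list, with no role stated, the tools STAR 2.5.3a, HTSeq, DESeq2, Trimmomatic 0.36 and FastQC 0.11.5 and the build hg38. The annotation and strand setting of the counting are not given in the sources used here, and IRF3 shares 734 exon bases with BCL2L12 on the other strand, TBK1 702 with AC135279.3 and EIF2AK2 35 with GPATCH11 and 401 with a pseudogene.

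Counts were filtered with filterByExpr and tested over 12399 genes with edgeR 4.0.16 (R 4.3.3, TMM, quasi-likelihood, threshold 0.05, Benjamini-Hochberg). Standard errors were derived from the log2 fold change and its F statistic, and the 95% intervals built on them are approximate. CPM uses TMM-scaled total counts. GENCODE release 29 (GRCh38) gave lengths, GC content and coordinates, matched by symbol for all 10 genes. The main edgeR fit was tested on simulated counts, and the alternative fits were not. The genes, lists and tests were chosen with earlier results of these data known. Named beside the 10 genes were related genes by name, some of which are not reported here, the 2 of smallest p in each list, and genes without a count. EIF2AK1, EIF2AK3, EIF2AK4, TLR7, TLR9 and CGAS, the neighbours of IRF7, BAG6 and DDX39B, were named after their values were seen. Alternatives were other scalings, filters and tools (limma 3.58.1, DESeq2 1.42.0), the replicate block, a length and GC correction, a threshold of 0.1, other lengths, and leaving out each library.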

Additional observations from a re-analysis of the deposited data

How the results depend on the processing

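Across 16 alternatives, none of the 10 genes passed the test, with adjusted p-values from 0.441 to 1.00 over 159 values. Beside the leave-one-out fits, 3 values changed sign: DHX58 with limma-voom (0.098), and TBK1 with upper-quartile scaling (-1.6e-05) and with the length and GC trend removed (-0.018). With a library left out the ranges were -0.12 to 0.040 for IFIH1, -0.78 to 1.17 for DHX58, -0.027 to 0.080 for MAVS, -0.23 to 0.017 for TICAM1, -0.047 to 0.15 for IRF3, -0.063 to 0.073 for TBK1 and -0.040 to 0.092 for ADAR. DHX58 could not be fitted with a mean count of at least 50. The counts over all genes, 0 higher and 0 lower, became 20 and 43 without a filter, 1 and 0 with the length and GC trend removed, and 2 to 106 higher and 15 to 97 lower with each library left out, where a lone library borrows the spread of the other group. With the replicate number as a block they were 0 and 1. Same-numbered deviations correlated at -0.264, which gave no sign that the numbers pair the samples, and the crossed replicate block, added after the data were seen, gave 55 higher and 42 lower, none of them among the 10 genes. The cause of these changes was not tested. Using the joined exon length moved 6 of the 10 levels per length by more than their SD. DHX58 had the fewest counts of the 10 genes, and its SD over the libraries was 52.4% of its mean, against 27.5% from counting error alone. The source of the further spread was not tested.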
